A study of Mus musculus with 4 samples.

Results

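The genes described here make cholesterol and fatty acids. The list held 32 genes, 21 of sterol synthesis and its control and 11 of fatty acid synthesis, desaturation and activation, grouped by their place in these pathways. Of these, 30 genes were measured, 20 in the sterol arm and 10 in the fatty acid arm, out of 20644 genes measured in the series. A gene counted as measured when at least 1 of its probes was well above background on at least 1 array. No probe was assigned to Acat2, which joins acetyl-CoA units, so its expression was not analysed here. Elovl6, a fatty acid elongase, was not well above background on any array.

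Cholesterol is built from acetyl-CoA through mevalonate, isoprenoid phosphates, squalene and lanosterol, in a chain of enzymes that sit mostly in the endoplasmic reticulum. The genes of this chain are switched on together by the transcription factor SREBP-2, the product of Srebf2. When membrane sterol is low, SREBP-2 is carried to the Golgi and cut to its active form, and Insig proteins hold it back when sterol is plentiful. Fatty acids are built from the same acetyl-CoA by acetyl-CoA carboxylase and fatty acid synthase, and their genes answer to SREBP-1c and to the oxysterol receptor LXR. Activated macrophages are known to remodel both arms, since membranes, lipid mediators and oxysterols are part of the inflammatory programme.

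The study compared macrophages grown from bone marrow of male mice, all on the C57BL/6J background, that were either wild type or Batf2-/- (called knockout below). Batf2 encodes a transcription factor with a leucine zipper, related to AP-1. Marrow cells from femurs were grown in M-CSF at 3 ng/ml, the medium was changed on day 3, and the cells were taken on day 5. They were measured untreated (0 h) or after 8 h with R848 at 100 ng/ml, a small molecule that activates TLR7 in mouse cells. The 4 groups were wild type untreated, wild type with R848, knockout untreated and knockout with R848, with 1 array each. The sources used here do not say how many animals gave each culture, where the deletion lies in Batf2, or whether untreated cells were also kept for 8 h. R848 and time in culture therefore cannot be told apart.

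All 4 arrays lay on 1 slide. The 75th percentile of the spot intensity lay between 252 and 278, and between 60.6% and 71.4% of the probes were well above background. Values are given below as scaled signal, in fluorescence units, which is the processed spot intensity after the 75th percentiles of the 4 arrays were made equal. Scaled signals are compared only within a gene. With 1 array per group there is no replicate, so no test is given. For scale, differences between 2 arrays varied by 0.048 to 0.057 (SD, log2) over repeated spots of the same probe, and the difference between the genotypes' responses by 0.073. This spread is technical and leaves out that between cultures or mice. The threshold for a call was 2-fold in either direction. The Batf2 probe read 32.4 and 94.4 on the wild-type arrays, untreated and with R848, and 26.9 and 11.3 on the knockout arrays, the last not well above background. The untreated values thus lay close together, and with R848 the knockout value was at least 6.20-fold lower. All 10 macrophage markers were well above background on every array.

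Promoters of 25 of the 32 genes were matched in RefSeq (build GRCm38.p6). The 250 bases before the annotated start are shown for 7, each with at least 1 match of letters known to serve SREBP genes. Such promoters typically pair a sterol regulatory element with binding letters for NF-Y (CCAAT) and Sp1 (GGGCGG). Pmvk, Idi1, Lss, Tm7sf2, Acss2 and Acsl1 are among those with the largest difference between the responses of the genotypes, and Hmgcs1 is shown because it is the sterol gene with the sterol regulatory element letters TCACCCCAC. Their positions are chr13:119690101-119690350 (plus strand) for Hmgcs1, chr3:89454291-89454540 (plus) for the first start of Pmvk, chr13:8885356-8885605 (plus) for Idi1, chr10:76531355-76531604 (plus) for Lss, chr19:6067851-6068100 (minus) for Tm7sf2, chr2:155517793-155518042 (plus) for Acss2 and chr8:46490716-46490965 (plus) for the second start of Acsl1. Each is written 5' to 3' in the direction of its gene. Capitals mark TCACCCCAC, CCAAT and GGGCGG on either strand, the reverse forms being GTGGGGTGA, ATTGG and CCGCCC. The first start of Pmvk holds 1 CCAAT and no other match, and its second start, not shown, holds none. The first start of Acsl1, not shown, holds only GGGCGG.

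Hmgcs1: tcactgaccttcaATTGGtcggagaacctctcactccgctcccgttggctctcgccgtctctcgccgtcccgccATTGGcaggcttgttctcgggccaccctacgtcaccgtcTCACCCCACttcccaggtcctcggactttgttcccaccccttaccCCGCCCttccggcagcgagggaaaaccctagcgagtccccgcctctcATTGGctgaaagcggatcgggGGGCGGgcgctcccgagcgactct
Pmvk: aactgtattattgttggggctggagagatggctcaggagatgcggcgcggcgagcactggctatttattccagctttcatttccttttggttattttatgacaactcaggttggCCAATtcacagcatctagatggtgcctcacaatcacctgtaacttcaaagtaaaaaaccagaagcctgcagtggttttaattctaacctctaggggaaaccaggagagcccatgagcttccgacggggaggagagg
Idi1: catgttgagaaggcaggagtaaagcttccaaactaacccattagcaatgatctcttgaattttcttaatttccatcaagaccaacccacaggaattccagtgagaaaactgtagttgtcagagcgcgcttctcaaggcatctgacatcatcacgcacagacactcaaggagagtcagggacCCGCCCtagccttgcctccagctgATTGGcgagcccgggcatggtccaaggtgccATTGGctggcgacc
Lss: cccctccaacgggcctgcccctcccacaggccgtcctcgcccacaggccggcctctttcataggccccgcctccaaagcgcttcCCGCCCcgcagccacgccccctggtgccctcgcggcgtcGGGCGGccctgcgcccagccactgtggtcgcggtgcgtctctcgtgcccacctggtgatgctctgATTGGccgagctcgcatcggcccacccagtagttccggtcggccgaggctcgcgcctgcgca
Tm7sf2: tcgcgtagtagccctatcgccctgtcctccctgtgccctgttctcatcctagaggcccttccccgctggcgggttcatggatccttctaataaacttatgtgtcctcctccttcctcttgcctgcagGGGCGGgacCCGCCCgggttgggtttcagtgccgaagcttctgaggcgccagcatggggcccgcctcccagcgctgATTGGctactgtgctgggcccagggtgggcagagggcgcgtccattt
Acss2: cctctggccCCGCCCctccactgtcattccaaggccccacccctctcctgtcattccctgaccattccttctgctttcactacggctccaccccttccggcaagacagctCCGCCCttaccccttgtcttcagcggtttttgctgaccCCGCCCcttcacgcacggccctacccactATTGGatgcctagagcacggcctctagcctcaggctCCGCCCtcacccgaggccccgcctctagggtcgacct
Acsl1: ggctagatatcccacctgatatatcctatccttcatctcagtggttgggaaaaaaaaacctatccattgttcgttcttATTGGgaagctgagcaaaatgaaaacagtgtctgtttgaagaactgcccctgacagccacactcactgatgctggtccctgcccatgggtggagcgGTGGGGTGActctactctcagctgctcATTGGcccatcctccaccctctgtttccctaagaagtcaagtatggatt

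In Hmgcs1 the sterol regulatory element letters began 137 bases before the start, between matches of CCAAT that began at 237, 176 and 45 bases. In Acsl1 they lay on the other strand, 76 bases before its second start. The 17 sterol genes and 8 fatty acid genes with a promoter include Acat2 and Elovl6, which were not measured. The letters TCACCCCAC were found in 0.496% of all 32851 promoters of the same length, and in 1 of the 17 sterol genes and 1 of the 8 fatty acid genes. The looser form TCACNCCAC, which includes the former, was found in 1.05% of all promoters and in the same genes, Hmgcs1 and Acsl1. CCAAT was in 16 of the 17 sterol genes and 4 of the 8 fatty acid genes, a gene counting when any of its starts matched. Counted by start, as all promoters are, it was in 16 of 20 and 4 of 9, against 33.8% of all promoters. GGGCGG was in 16 of the 17 and 5 of the 8, or 17 of 20 and 5 of 9 starts, against 32.7%. At least 2 matches of CCAAT were present in 9 of the 17 sterol genes, against 10.1% of all promoters. Here the 9 are counted by gene and all promoters by start. The E-box CACGTG was in 4 sterol genes (Dhcr7, Hsd17b7, Insig1 and Sc5d), or 4 of 20 starts, and 0 fatty acid genes, against 6.02%. A match describes the letters and was not tested as a site. Promoters of Fdps, Fdft1, Sqle, Scd1, Scd2, Fads1 and Stard4 were not analysed here.

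The sterol arm was higher with R848 in both genotypes, and the difference was larger in the knockout. In wild-type cells 17 of 20 sterol genes were above 0 with a median log2 difference of 0.41 (all genes -0.03, and 47.3% of all genes above 0). In knockout cells the same count, 17 of 20, had a median of 0.82 (all genes -0.06, and 44.5% above 0). At 2-fold, 0 of 20 were higher and 1 was lower in wild type, where 6.19% of all genes were called higher and 7.01% lower. In the knockout 7 of 20 were higher and 0 lower, where 6.84% of all genes were called higher and 6.57% lower. At 1.5-fold the higher counts were 7 of 20 in wild type and 14 of 20 in the knockout, where all genes gave 13.0% and 13.6%. The lower counts were 2 and 1, where all genes gave 16.0% and 15.8%. The genes past 2-fold in the knockout were Sqle, Fdps, Hsd17b7, Cyp51, Mvd, Idi1 and Sc5d. Sqle, Fdps, Cyp51 and Mvd stayed past 2-fold under every alternative processing run, though not every alternative could move them. The other filters and leaving out marked areas returned the same values. The authors' table holds the same processed values times a constant. Fdps and Mvd have 1 probe each, so the mean over probes left them unchanged. Sc5d fell short under 3 alternatives (0.69 to 0.99, log2), Hsd17b7 under normexp background correction (0.90) and Idi1 with local trends taken off each array (0.84).

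**Figure D1:**
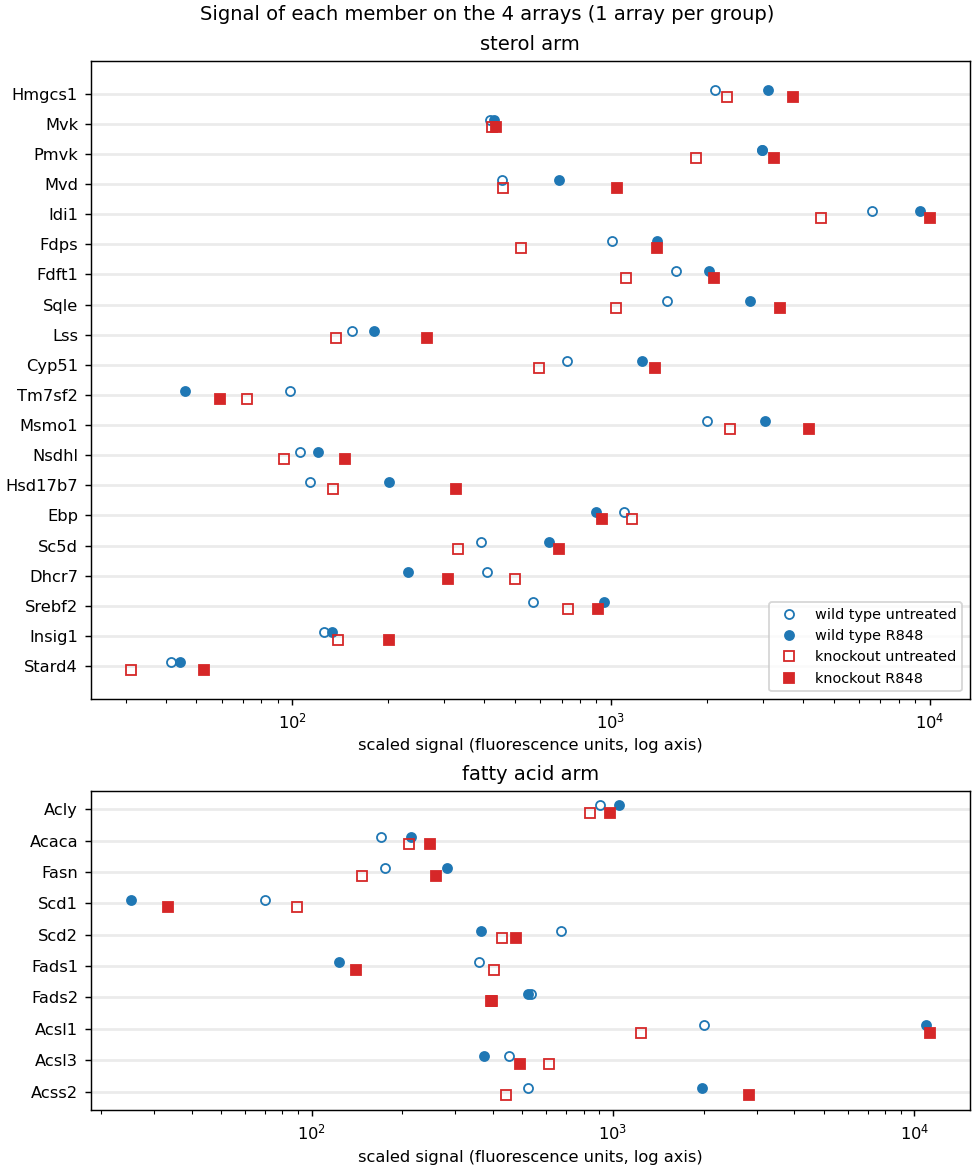
Scaled signal (log axis, fluorescence units) of the 20 sterol genes and the 10 fatty acid genes on each array, in pathway order, with open symbols for untreated and filled symbols for R848 (1 array per point, no error bars). For Fdps, Sqle and Idi1 the untreated knockout point lies lowest and both R848 points lie to the right of the untreated ones.

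The first steps turn acetyl-CoA units into farnesyl diphosphate, and all 6 measured genes of these steps were above 0 in both genotypes, with medians of 0.49 in wild type and 0.97 in the knockout. Hmgcs1, which makes HMG-CoA, read 2114 and 3103 in wild type, untreated and with R848, and 2317 and 3724 in the knockout. It was higher with R848 to a similar degree in both, by 1.47-fold and 1.61-fold. Mvk, mevalonate kinase, lay between 417 and 435 on all 4 arrays by its brightest probe. A much dimmer probe for another transcript of Mvk differed by 0.77 in wild type and 1.08 in the knockout (log2), so its probes disagree.

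Pmvk, which adds the second phosphate to mevalonate, read 2969 and 2977 in wild type and 1853 and 3255 in the knockout. The untreated knockout array stood low and the other three arrays lay close together, so R848 and untreated differed by 1.76-fold in the knockout and hardly at all in wild type. Mvd, the mevalonate diphosphate decarboxylase, read 453.5 and 684 in wild type and 458 and 1048 in the knockout. Its untreated values were alike and the R848 values were not, giving 1.51-fold in wild type and 2.29-fold in the knockout. Idi1, which isomerises the isoprene unit, read 6588 and 9299.7 in wild type and 4564 and 9994 in the knockout. Here the untreated values differed and the R848 values were nearly equal, with differences of 1.41-fold and 2.19-fold.

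Fdps, the farnesyl diphosphate synthase at the branch to sterols and prenylated proteins, read 1004 and 1395 in wild type and 523 and 1389.8 in the knockout. The R848 arrays of the genotypes differed by -0.01 (log2) while the untreated knockout was 1.92-fold below the untreated wild type. The R848 difference was therefore 1.39-fold in wild type and 2.66-fold in the knockout, the widest gap between the responses in the sterol arm (0.94, log2).

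The next steps form squalene and close it into lanosterol. Fdft1, squalene synthase, read 1603 and 2034 in wild type and 1115 and 2108 in the knockout. Its second probe read 343 and 473 in wild type and 339 and 758 in the knockout, so its untreated values were alike where those of the brightest probe were not. Sqle, squalene epoxidase, a rate-controlling step, read 1501 and 2723 in wild type and 1036 and 3389 in the knockout. Sqle had the largest increase of the sterol arm in each genotype, 1.81-fold in wild type and 3.27-fold in the knockout. Lss, which closes the ring, read 154 and 181 in wild type and 137 and 264 in the knockout, or 1.17-fold and 1.92-fold. At the brightest probe of each of these 3 genes the untreated knockout array was the lowest and the knockout array with R848 the highest. A dimmer Lss probe had the untreated wild-type array lowest instead, at 41.2 against 51.9 in the untreated knockout. Around the Sqle probe the local level of the array lay 0.22 above the array's own level in the untreated wild type and 0.25 below it in the untreated knockout (log2). Around the brightest Fdft1 probe it lay 0.14 below in the untreated wild type and 0.26 above in wild type with R848. The wild-type difference of Fdft1 was 0.34 (log2). With local trends taken off each array Sqle differed by 1.05 in wild type and 1.63 in the knockout. A dim second Sqle probe, read at 44.1 to 55.3, differed by 0.20 and 0.33.

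The last steps trim lanosterol to cholesterol, and they did not move as 1 group. Cyp51, which removes the methyl group at the start of this series, read 726 and 1254 in wild type and 593 and 1378 in the knockout, differences of 1.73-fold and 2.32-fold. Its other probe gave close values, 0.74 and 1.20 on the log2 scale. Hsd17b7, a sterol ketoreductase, read 114 and 200.4 in wild type and 134 and 325 in the knockout, or 1.76-fold and 2.43-fold. Its second probe differed by 1.02 and 2.35 (log2), the same direction with a wider gap. Sc5d, the lathosterol desaturase, read 389.7 and 639 in wild type and 332 and 689 in the knockout, or 1.64-fold and 2.07-fold. A dim second probe of Sc5d was lower with R848 in wild type (-0.84) and higher in the knockout (0.33), so the Sc5d call rests on its brightest probe.

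Msmo1, which oxidises the methyl groups, was higher by 1.52-fold in wild type and 1.77-fold in the knockout, and Nsdhl, which works with it, by 1.14-fold and 1.56-fold. In contrast, Tm7sf2, a sterol reductase, read 98.2 and 46.1 in wild type and 72.0 and 59.4 in the knockout. It was 2.13-fold lower with R848 in wild type and 1.21-fold lower in the knockout. The wild-type call did not hold under 4 alternatives, at -0.60 to -0.95 (log2). Its second probe was also lower in both, by -1.19 and -0.88 (log2). Dhcr7, the enzyme of the final reduction, read 407.5 and 231 in wild type and 501 and 307 in the knockout, 1.77-fold and 1.63-fold lower. Ebp, the sterol isomerase, was lower by 1.22-fold and 1.24-fold at its brightest probe, while its other probe was higher in both. Tm7sf2, Dhcr7 and Ebp were the 3 sterol genes below 0 in each genotype.

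Among the regulators and carriers, the probes of Srebf2 did not give 1 order. The brightest read 571 and 950.2 in wild type and 733 and 907 in the knockout, so its R848 difference was 1.66-fold in wild type and 1.24-fold in the knockout. The other read 284 and 397 in wild type and 266 and 455 in the knockout, differences of 0.48 and 0.77 (log2), with the larger in the knockout. Both probes were higher with R848 in both genotypes, and the order of the genotypes was not settled. Insig1, which retains SREBP in the endoplasmic reticulum and is itself a target of it, read 126 and 134 in wild type and 139 and 201 in the knockout. Only the knockout array with R848 stood apart, at 1.44-fold over its untreated array against 1.06-fold in wild type. Stard4, a soluble sterol carrier, read 41.6 and 44.5 in wild type and 31.1 and 52.8 in the knockout, 1.07-fold and 1.70-fold. A second, dim Stard4 probe was not well above background on either R848 array.

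**Figure D2:**
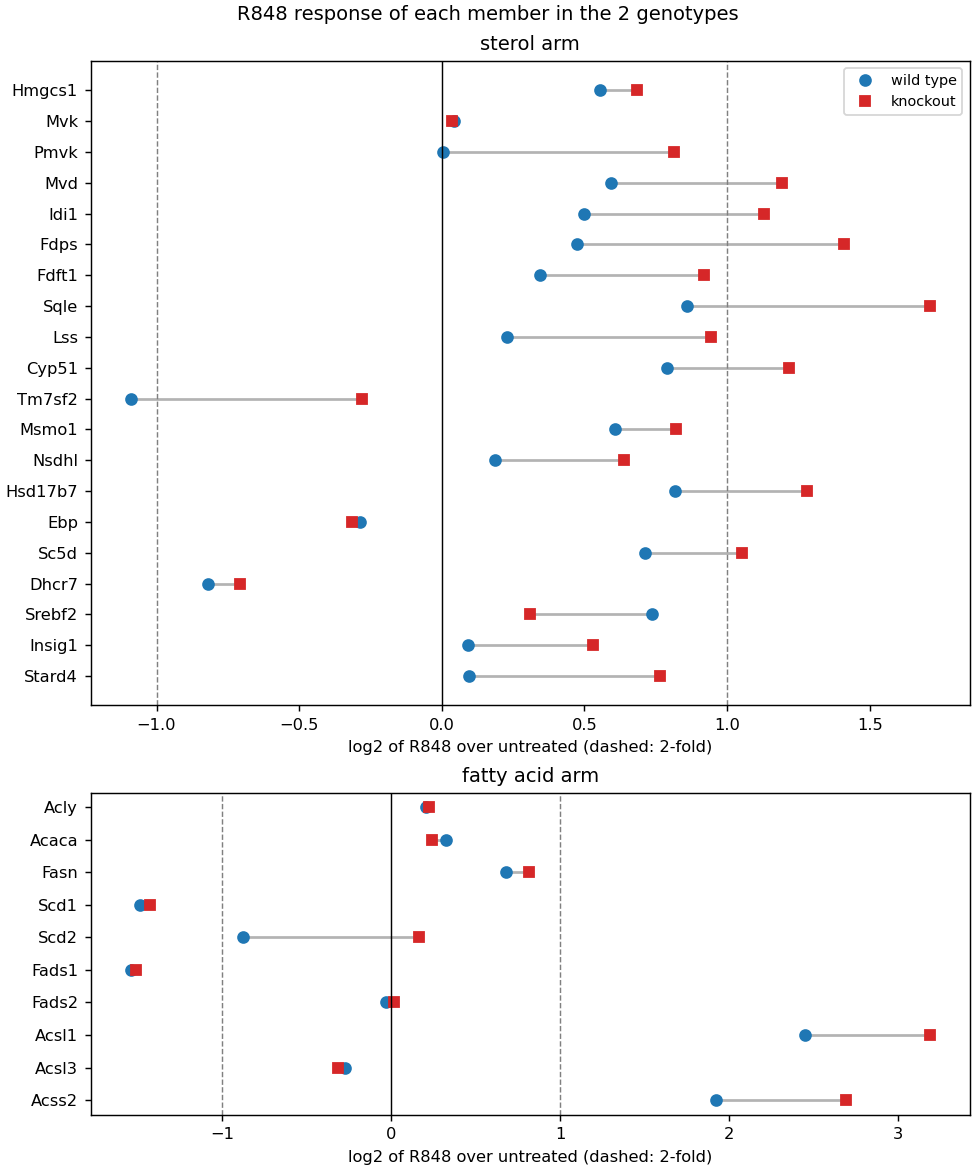
R848 response of each member as log2 of R848 over untreated, with circles for wild type, squares for the knockout and dashed lines at 2-fold (1 array per group, no error bars). Squares lie to the right of circles for 17 of 20 sterol genes, and Scd2 lies on opposite sides of 0.

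The fatty acid arm did not shift as a whole. Its median R848 difference was 0.09 in wild type and 0.19 in the knockout (log2). In each genotype Acsl1 and Acss2 were at least 2-fold higher and Fads1 and Scd1 at least 2-fold lower, so 4 of 10 genes were called where 13.2% (wild type) and 13.4% (knockout) of all genes were called in either direction.

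The enzymes that make or activate acyl-CoA held the largest increases. Acsl1, the long-chain acyl-CoA synthetase of activated macrophages, read 1999 and 10914 in wild type and 1235 and 11233 in the knockout. Both R848 arrays stood far above the untreated ones, by 5.46-fold and 9.09-fold. Its other probes were higher by 2.08 to 2.98 on the log2 scale, the dimmest of them as a lower bound because it was not well above background untreated. With local trends taken off each array Acsl1 differed by 2.05 in wild type and 2.88 in the knockout, against 2.45 and 3.18 (log2). Acss2, which makes acetyl-CoA from acetate, read 522 and 1977 in wild type and 439.9 and 2834 in the knockout, 3.78-fold and 6.44-fold higher. All 4 of its probes were higher in both genotypes. Acly, which makes acetyl-CoA from citrate, was 1.15-fold and 1.17-fold higher, and Acsl3, a synthetase linked to lipid droplets, was 1.21-fold and 1.24-fold lower.

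The committed synthesis steps were modestly higher. Fasn, fatty acid synthase, read 175 and 281 in wild type and 147 and 259 in the knockout, 1.60-fold and 1.76-fold. Acaca, acetyl-CoA carboxylase, read 170.2 and 213 in wild type and 209.9 and 247 in the knockout, 1.25-fold and 1.18-fold at its brightest probe. The other 3 probes of Acaca gave 0.25 to 0.59 in wild type and 0.62 to 0.87 in the knockout (log2), with the dimmest a bound in the knockout.

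The desaturases, which put double bonds into fatty acids, were lower or flat. Fads1, the delta-5 desaturase, read 359.7 and 124 in wild type and 402 and 141 in the knockout. At its brightest probe the decrease was alike in both genotypes, 2.91-fold and 2.85-fold. A dimmer Fads1 probe, well above background on all 4 arrays, read -1.58 in wild type and -0.94 in the knockout (log2). The dimmest gave bounds of -0.67 and -1.43, because it was not well above background with R848 in either genotype. All Fads1 probes were lower with R848, and the order of the genotypes was not settled. Scd1, a stearoyl-CoA desaturase and known LXR and SREBP-1c target, read 70.3 and 25.1 in wild type and 89.5 and 33.3 in the knockout, 2.80-fold and 2.69-fold lower, or -0.69 and -0.66 (log2) under normexp background correction. A dimmer Scd1 probe read -0.18 in the knockout (log2) and -0.67 in wild type, the latter a bound because the probe was not well above background there with R848. Fads2, the delta-6 desaturase, differed by 1.02-fold and 1.01-fold with R848 at its brightest probe. Its other probes read -0.04 and -0.65 in wild type, and 0.11 and -0.08 in the knockout (log2). Fads2 was lower in the knockout on both pairs of arrays, by 1.36-fold untreated and 1.31-fold with R848 at the brightest probe. The probe at -0.65 in wild type read -1.52 and -0.96 (log2) between genotypes.

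Scd2, the other stearoyl-CoA desaturase of macrophages, read 671 and 365 in wild type and 427 and 478 in the knockout. It was 1.84-fold lower with R848 in wild type and 1.12-fold higher in the knockout. The wild-type untreated array stood above the other three. Scd2 was read by 1 probe, and it was the only member whose 2 responses differed by at least 2-fold, by 1.04 on the log2 scale, where 3.15% of all genes were called larger in the knockout and 2.5% smaller (5.65% either way). It was 0.93 under normexp background correction and 0.92 with local trends taken off.

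**Figure D3:**
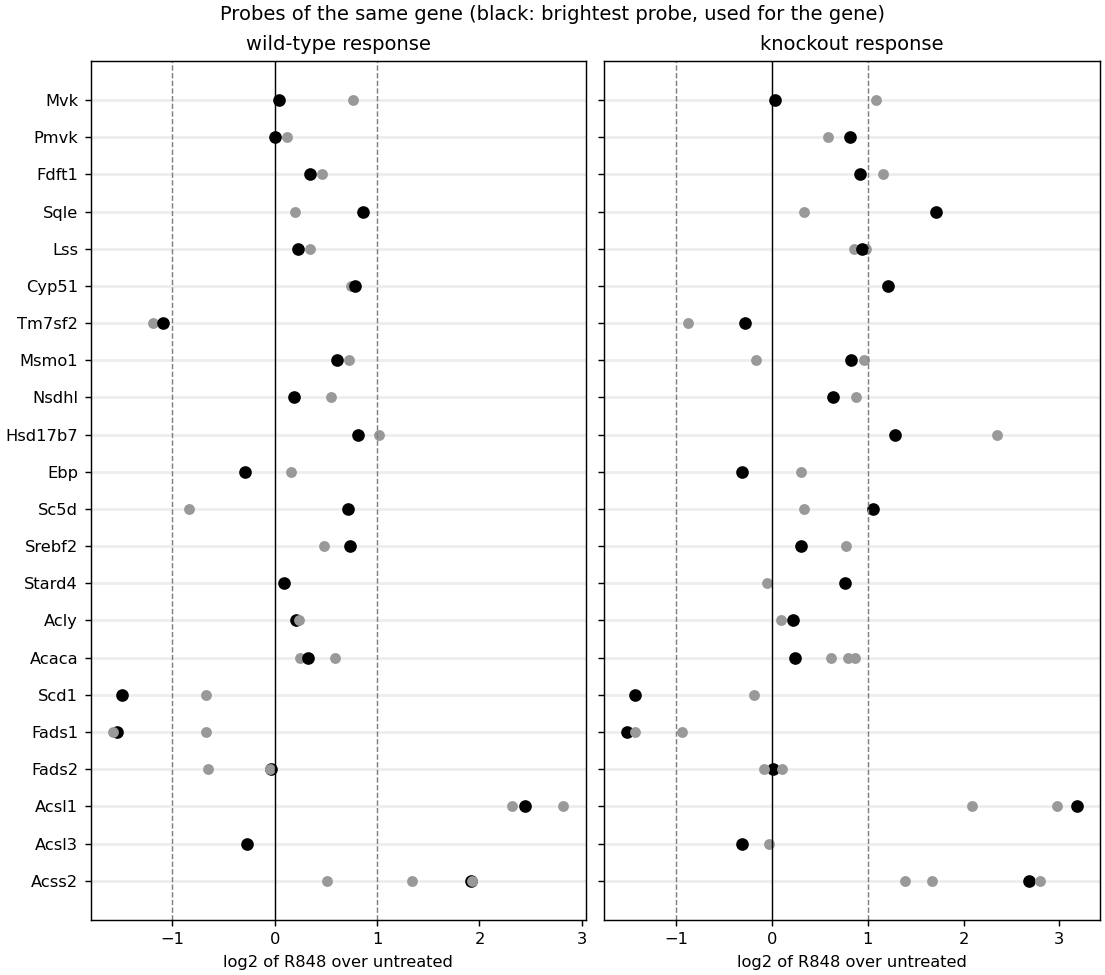
Log2 of R848 over untreated for every measured probe of the 22 members with several measured probes, wild type on the left and knockout on the right, black for the brightest probe and grey for the others. Probes of Acly and Cyp51 lie close in wild type, while those of Sc5d and Mvk are spread.

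Of the members with several probes, all probes went one way in 18 of 20 for the wild-type response and 18 of 22 for the knockout response. For the difference between the responses this held in 13 of 20, and for the genotypes compared untreated in 11 of 22. The probes of Ebp, Sc5d and Srebf2 are among those that disagree.

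The responses of the genotypes were then set against each other. In the sterol arm 17 of 20 genes had the larger difference in the knockout, against 48.1% of all genes, with a median of 0.46 (log2) against -0.02 for all genes. At 1.5-fold 8 of 20 were larger in the knockout (Fdps, Sqle, Tm7sf2, Pmvk, Lss, Stard4, Idi1 and Mvd) and 0 larger in wild type, where all genes gave 9.54% and 8.15%. At 2-fold the count was 0 of 20. The 3 genes that did not share the direction were Srebf2 at -0.43 and Ebp and Mvk within the technical spread. In the fatty acid arm the median was 0.05, with Scd2, Acss2 (0.77) and Acsl1 (0.74) past 1.5-fold. With local trends taken off, the difference was 0.58 for Sqle and 0.52 for Idi1, both short of 1.5-fold. The second Acsl1 probe gave 0.16, a dim one that was not well above background untreated gave -0.23, and the other Acss2 probes gave 0.34 to 0.88.

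**Figure D4:**
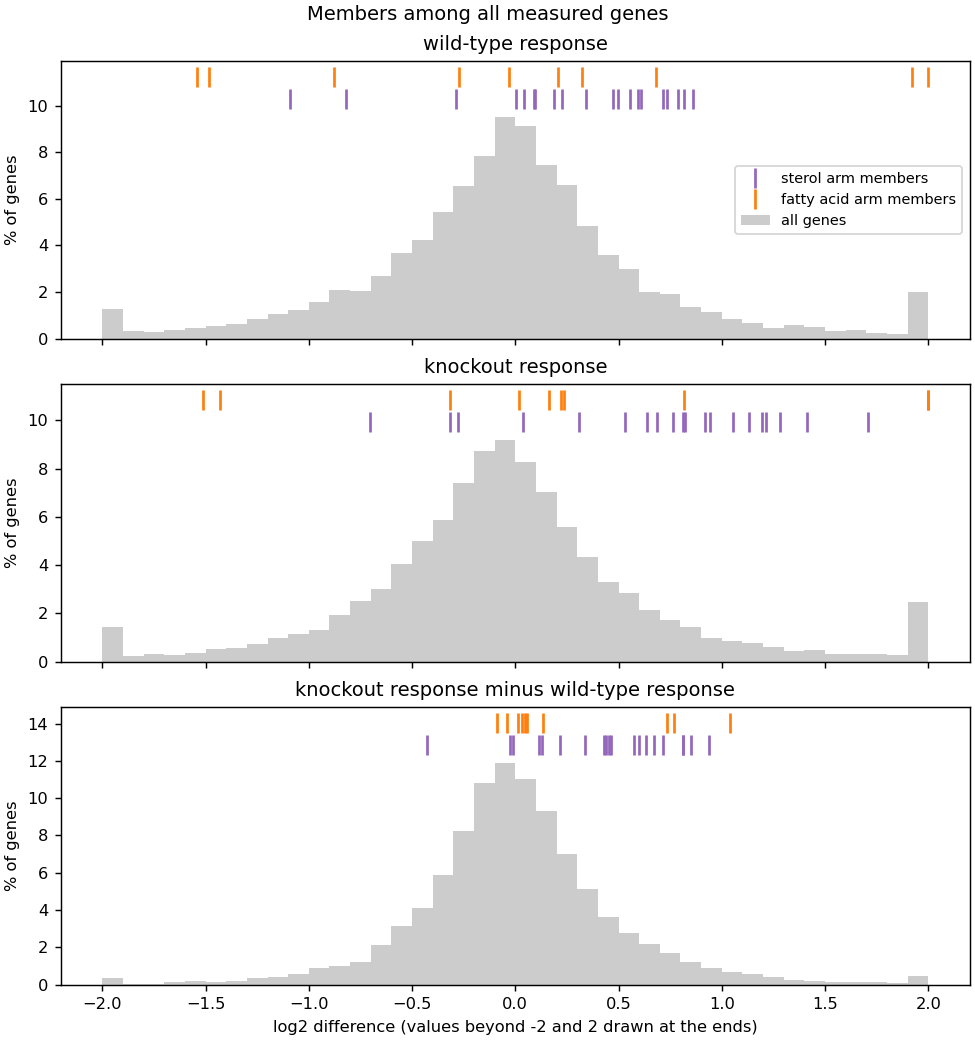
Distribution of all measured genes (grey bars, % of genes per bin of 0.1 log2) for the wild-type response, the knockout response and their difference, with a tick for each sterol and fatty acid member above the bars. In the lower panel the sterol ticks lie mostly to the right of 0 around their median of 0.46, and the fatty acid ticks gather near 0.

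A difference between responses can come from either pair of arrays, and the comparisons share arrays, so the genotype values are given side by side. Untreated, 11 of 20 sterol genes were lower in the knockout (43.2% of all genes), with a median of -0.17 (all genes 0.06). With R848, 18 of 20 were higher in the knockout (54.9% of all genes), with a median of 0.26 (all genes 0.04). At 2-fold no member was called in either comparison, where 2.80% of all genes were higher and 3.18% lower untreated (5.98% either way), and 2.35% and 2.44% with R848 (4.79% either way). At 1.5-fold Fdps and Pmvk were lower untreated (0 of 20 sterol genes higher), where all genes gave 7.84% lower and 9.63% higher. With R848 Mvd, Hsd17b7 and Insig1 were past 1.5-fold higher (0 of 20 lower), where all genes gave 8.68% higher and 6.44% lower. For Hsd17b7 this rests on its brightest probe, at 0.23 untreated and 0.70 with R848 (log2). Its second probe read -1.06 untreated and 0.27 with R848. In the fatty acid arm Scd2 and Acsl1 passed 1.5-fold untreated, both lower in the knockout, at 1.57-fold and 1.62-fold.

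**Figure D5:**
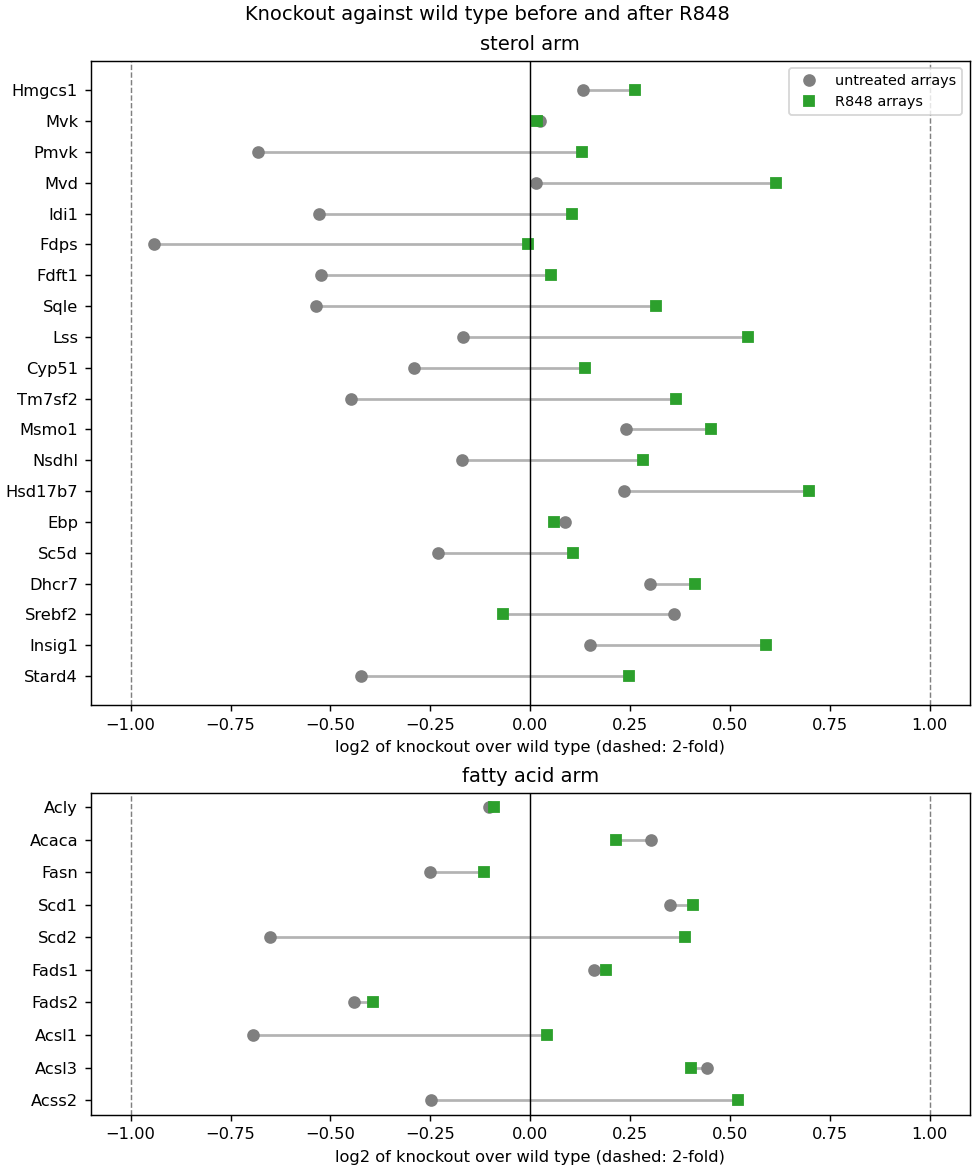
Log2 of knockout over wild type for each member on the untreated arrays (circles) and on the R848 arrays (squares), with dashed lines at 2-fold. Fdps, Pmvk and Acsl1 lie left of 0 untreated and close to 0 with R848, while Mvd and Insig1 lie near 0 untreated and to the right with R848.

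At their brightest probes the genes had different layouts over the 4 arrays. Fdps (-0.94 untreated and -0.01 with R848), Pmvk (-0.68 and 0.13), Idi1 (-0.53 and 0.10) and Acsl1 (-0.69 and 0.04) differed between genotypes on the untreated arrays and were nearly equal with R848. Mvd (0.02 and 0.61) and Insig1 (0.15 and 0.59) showed the reverse. The probes of Fdft1 were split, at -0.52 and 0.05 for the brightest and -0.02 and 0.68 for the other. Sqle (-0.54 and 0.32), Tm7sf2 (-0.45 and 0.36), Stard4 (-0.42 and 0.25) and Scd2 (-0.65 and 0.39) changed sign between the pairs. The untreated value was smaller at the second probes of Sqle (-0.01), Tm7sf2 (-0.05), Pmvk (-0.35) and Acsl1 (-0.31), and with local trends taken off it was -0.35 for Sqle and -0.38 for Idi1. The dim second Stard4 probe had the other sign untreated, at 0.18.

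Markers of other cells differed between the same arrays. Of 5 granulocyte precursor markers, all were well above background on every array, and their summed scaled signal was 24095 and 5301 in wild type, untreated and with R848, and 1787 and 610 in the knockout. Of 6 basophil and mast cell markers, 6, 6, 5 and 2 were well above background in the same order, summing to 4776, 2386, 297 and 116. Macrophage markers summed to 171310, 184550, 197690 and 215820. Among the others, 3 dendritic cell markers summed to 162 to 368, 4 fibroblast and stroma markers to 2299 to 3933, 3 adipocyte markers to 100 to 258 with Adipoq or Cidec not well above background on every array, and 3 lymphocyte markers to 519 to 644. The part of these cells in the sterol gene values was not tested. In bulk RNA, fewer cells of a type and less RNA per cell cannot be told apart.

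Genes around the members were taken from lists of the same pathways. Ggps1, on the branch to protein prenylation, read 243 and 546 in wild type and 356 and 412 in the knockout. It was higher with R848 by 1.17 in wild type and 0.21 in the knockout (log2), the opposite order to most sterol genes.

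Of 10 genes that process SREBP, 0 were past 2-fold in either genotype. All genes gave 13.2% in wild type and 13.4% in the knockout, in either direction. The medians of the 10 genes were -0.03 and 0.04. Among genes of sterol uptake and transport, Gramd1a, a sterol transfer protein, was higher by 1.53 in wild type and 1.37 in the knockout. Vldlr was dim, at 68.1 and 31.9 in wild type and 36.8 and 43.0 in the knockout. Its difference was -1.09 in wild type and 0.22 in the knockout, a pair of opposite sign. Of 8 oxysterol and LXR genes, Nr1h3, which encodes LXR alpha, was higher by 1.78 and 1.44, while the cholesterol exporter Abcg1 was lower, at 6073 and 2012 in wild type and 7608 and 1909 in the knockout. The oxysterol-forming enzyme Cyp27a1 was not well above background on either R848 array.

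Of 15 other measured fatty acid genes, Me1, which supplies NADPH, read 236 and 946 in wild type and 224 and 1197 in the knockout, the largest increases of that list. Acsl5 (1.32 and 1.87), Hacd3 (1.52 and 1.16) and Hsd17b12 (1.42 and 1.37) were also higher in both. The elongase Elovl5 was lower by -1.39 in wild type and -0.90 in the knockout, beside the decreases of Fads1 and Scd1. Elovl7 and Fads3 were at least 2-fold lower in wild type, where neither was well above background with R848. In the knockout Fads3 read -0.28 and Elovl7 had a bound of -0.69. Of 7 storage and glycerolipid genes, the lipid droplet protein Plin2 was lower in both (-1.43 and -1.54), and Soat1, which esterifies cholesterol, and Hilpda were past 2-fold lower in the knockout (both -1.12), at -0.74 and -0.29 in wild type.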

How the data were processed

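RNA of 4 mouse macrophage cultures was measured on Agilent arrays with 1 colour. Per the file headers, the authors extracted spot intensity with Agilent Feature Extraction 11.5.1.1, which subtracted background and a spatial trend, with the probe grid annotated to mm9. The deposited series table holds scaled intensity for 39374 spots, each column being the scanner's processed values multiplied by a constant (within 1% for 100.0% of spots), and the authors' log2 ratios, which were not used. For the basis of that constant, the sources used here give none. The column medians were 705, 675, 720 and 685 (wild type untreated, wild type with R848, knockout untreated, knockout with R848).

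The log2 of the processed signal minus each array's 75th percentile was used. Outlier spots (70 to 115 per array) were left out, no spot was saturated, and spots of a probe were averaged. Each gene is represented by the brightest of its probes that pass background on 1 array or more. A value that did not pass was raised to the lowest passing value of its array, which gives a bound, and a bound under 1-fold was left out. Scaled signal is this value put back on a linear scale. The technical spread is the median SD of the log2 difference between arrays over probes printed 10 times (289 to 292 probes). Probes were named through the authors' table and RefSeq (GRCm38.p6 gene table): 28867 through a gene ID, 10256 through an accession, 75 through a symbol, 45 through a synonym and 1241 by the file's symbol, leaving 16121 unnamed. Every member is named, with values on all arrays for those past 2-fold in any comparison or past 1.5-fold between responses. Genes outside the list are named where past 2-fold with R848, except some that are not reported here. The members, lists and rules were chosen with earlier results of these data known.

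Alternatives were median centring, quantile normalization, normexp background correction (limma 3.58.1, offset 50, on median spot signals because the files hold no mean signal), the authors' table, the mean over probes, other filters, marked areas left out, a 1.5-fold threshold and, added after the data were seen, a local trend over 11 by 11 spots taken off each array. The calculation was checked on simulated arrays with known folds. Python 3.11.15, pandas 2.3.3 and R 4.3.3 were used.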

Additional observations from a re-analysis of the deposited data

Results flagged for a closer look

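Scd2 differed in the direction of its response between the genotypes: it was lower with R848 in wild type (-0.88, log2) and higher in the knockout (0.16), so the responses lay 1.04 apart. The difference was not tested, since each group has 1 array and Scd2 has 1 probe.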

How the results depend on the processing

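No sign of a called member was reversed under any alternative run. The other filters and leaving out marked areas returned the same values for these calls, so they could not reverse one. At the 1.5-fold threshold, 9 of 20 sterol genes were called in either direction in the wild-type response and 15 of 20 in the knockout response. In the fatty acid arm, 3 of 10 were higher and 3 lower in wild type, and 3 and 2 in the knockout. All genes gave 13.0% higher and 16.0% lower in wild type, and 13.6% and 15.8% in the knockout. Between genotypes untreated 2 were called in each arm, where all genes gave 9.63% higher and 7.84% lower. With R848 3 sterol genes were called, where all genes gave 8.68% and 6.44%. Comparing the responses, 8 sterol and 3 fatty acid genes were called, where all genes gave 9.54% and 8.15%. The 1 sterol call in wild type, Tm7sf2, was 0 under quantile normalization (-0.94, log2) and normexp (-0.60), and Tm7sf2 also fell short with median centring (-0.94, where Sqle came in at 1.01) and with local trends taken off (-0.95). The Scd2 difference was 0.93 under normexp, leaving 0 calls in the fatty acid arm, and 0.92 with local trends taken off, where Acss2 reached 1.04. Without a filter 1 fatty acid gene was called lower between genotypes with R848. This was Elovl6, at 12.1 in wild type and 5.86 in the knockout, not well above background on any array. In the knockout response Sc5d fell short under normexp (0.92), the mean over probes (0.69) and local trends (0.99), Hsd17b7 under normexp (0.90), Idi1 under local trends (0.84) and Scd1 under normexp (-0.66) and the mean over probes (-0.81). In wild type Scd1 was -0.69 under normexp. Median centring added Fdft1 (1.06) and Lss (1.09) in the knockout, the mean over probes Fdft1 (1.04) and local trends Fdft1, just past 2-fold, and Lss (1.22). Median centring moved the median of all genes from -0.03 to 0.13 and from -0.06 to 0.09 in the responses of wild type and knockout, and the share of calls that were higher from 46.9% to 61.0% and from 51.0% to 63.1%. Between genotypes untreated that share went from 46.8% to 33.6% under normexp and to 35.0% when probes had to pass background on all arrays, and with R848 from 49.0% to 60.3% in the authors' table and 62.2% without a filter. The sterol median stayed between 0.32 and 0.56 in wild type, 0.70 and 0.96 in the knockout and 0.37 and 0.48 for their difference. The fatty acid median ran from -0.01 to 0.24 in wild type, 0.12 to 0.34 in the knockout and 0.03 to 0.26 for their difference. The cause of these changes was not tested. No paired analysis was possible because each group has 1 array. Having 4 arrays limits the precision, and dim probes such as those of Stard4 and Scd1 lie closest to background.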

Other observations

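Values between genotypes were past 2-fold for a few genes of the surrounding lists. Ch25h, which makes the oxysterol 25-hydroxycholesterol, read 25.9 and 21.9 in wild type, untreated and with R848, and 64.8 and 46.2 in the knockout. It was higher in the knockout by 1.32 untreated and 1.07 with R848 (log2), at signals near the low end of the arrays. Dgat2, which makes triglyceride, read 178 and 337 in wild type and 89.1 and 121 in the knockout, lower in the knockout on both pairs and by -1.48 (log2) with R848. These genes were named after their values were seen.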
